A study of Mus musculus with 16 samples.

Results

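Proteasome genes were examined in type 1 conventional dendritic cells (cDC1) of mice labelled knockout (KO) or heterozygous (Het) for Wdfy4. Genes were taken by symbol (the Psma, Psmb, Psmc, Psmd, Psme, Psmf and Psmg families and Ecpas), with Psmb8, Psmb9 and Psmb10 of the immunoproteasome left out, which gave 48 of the 19938 genes measured. Membership was set by names and not by a measured value, but the brightest probe set stood for each gene. The members were chosen with earlier results of these data known. The naming rule also took in Psmc3ip, a meiotic recombination factor, and Psme3ip1, a partner of the activator Psme3, which are not subunits. The subunit Adrm1 was not analysed here.

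The cDC1 came from 4 groups of 4 arrays each: Wdfy4 KO and Wdfy4 Het mice, each from the tumour-draining and from the non-draining inguinal lymph node. All were C57BL/6 mice that had received regressor tumours in the flank 6 days earlier, so no group was free of tumour. Nodes were digested with collagenase B and DNase I before the sort, and their total RNA was measured on Mouse Gene 1.0 ST arrays (Affymetrix). Wdfy4 encodes a BEACH-domain protein that cDC1 need to present cell-bound antigen to CD8 T cells, and the design asked how its loss alters cDC1 gene expression in and away from the draining node. The deleted part of the gene, the sort gates and whether each array came from its own mouse are not stated in the labels, so p-values measure the spread between arrays, part of which may be technical.

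The proteasome degrades proteins tagged with ubiquitin and supplies most peptides for MHC class I. Its 20S core has alpha rings around beta rings that hold the catalytic sites, and the 19S cap has a base, with ATPases that unfold the substrate, and a lid that removes ubiquitin. Interferon exchanges the catalytic subunits for immunoproteasome forms, which professional antigen-presenting cells carry at rest. When proteasome activity falls, the transcription factor NRF1 (Nfe2l1) drives most subunit genes together through antioxidant response elements.

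The arrays were comparable in overall signal, with median intensities of 38.6 to 40.8 over all probe sets, but KO draining array 2 stood apart. Its mean intensity was 205.6, against 217.1 to 237.1 for the other 15 arrays. It held the lowest value of 17.1% of all genes and the highest of 17.6%. All 11 cDC1 markers lay above the array medians in every array, with Xcr1 between 1240 and 2495 and Clec9a between 1031 and 1777. The dimmest of them, Zbtb46, lay between 121.7 and 177.5, within the range of the T cell gene Cd3e, 94.38 to 278.7. Wdfy4 itself had intensities of 2181, 2785, 2257 and 1786 in KO draining arrays, against 3150, 3450, 2766 and 2463 in Het draining arrays. It had 2356, 3165, 1923 and 2056 in KO non-draining arrays, against 3332, 3222, 2278 and 2386 in Het non-draining arrays. The groups overlapped in both nodes, the log2 differences were -0.40 ± 0.18 and -0.25 ± 0.18 (adjusted p = 1.00 in limma), and without the deleted part they do not check the labels.

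Proteasome genes were among the brighter genes of cDC1: 46 of 48 lay above the median level of all genes, which was 5.58 as log2(intensity + 1). The 2 below it were Psma8, the alpha subunit of the testis proteasome, at 4.69, and Psmb11, the catalytic subunit of the thymus proteasome, at 5.50. The brightest probe set was that of Psme2, a subunit of the interferon-induced activator PA28, which had 4619, 2607, 5250 and 6345 in KO draining arrays, against 3956, 4439, 6350 and 4654 in Het draining arrays. In the non-draining node Psme2 had 4899, 3675, 5622 and 5978 in KO arrays, against 4515, 4039, 5862 and 6267 in Het arrays. The groups overlapped in each node, and the lowest value was that of KO draining array 2. Probe sets differ in affinity, so their levels do not rank the subunits.

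The members varied more between arrays than other genes did. The median SD of a member over the 16 arrays was 0.262 on the log2 scale, against 0.177 for all genes and 0.227 for the 7108 genes at least as bright as Psmg2 or any other member apart from Psma8, Psmb11 and the 2 non-subunits. The widest spread was that of Psmd10 (gankyrin), a chaperone of base assembly, with an SD of 0.50. Psmd10 had 661, 272, 812 and 1037 in KO draining arrays, against 770, 665, 953 and 785 in Het draining arrays. The KO draining group alone held both its lowest and its highest array. The narrowest spread was that of Psme4 (PA200), an activator that caps the core without ATP, with an SD of 0.13 and intensities of 236 to 326 over all arrays.

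Much of the spread was shared by the members. In KO draining array 2 the median member was 0.53 below its own mean over the 16 arrays, 43 of 48 members were below their mean, and 33 had their lowest value of all arrays there. Genes at least as bright had a median deviation of -0.18 in that array. In Het draining array 3 the median member was 0.33 above its mean, against 0.09 for the genes as bright, and 17 members had their highest value there. The other KO draining arrays had member medians of -0.25, 0.06 and 0.11, against -0.02, 0.14 and 0.04 for the other Het draining arrays. KO non-draining arrays had 0.00, -0.26, 0.06 and 0.20, against -0.12, -0.04, 0.19 and 0.18 for Het non-draining arrays. In both KO groups array 2 was the lowest, and in each node the KO and Het ranges overlapped.

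**Figure D1:**
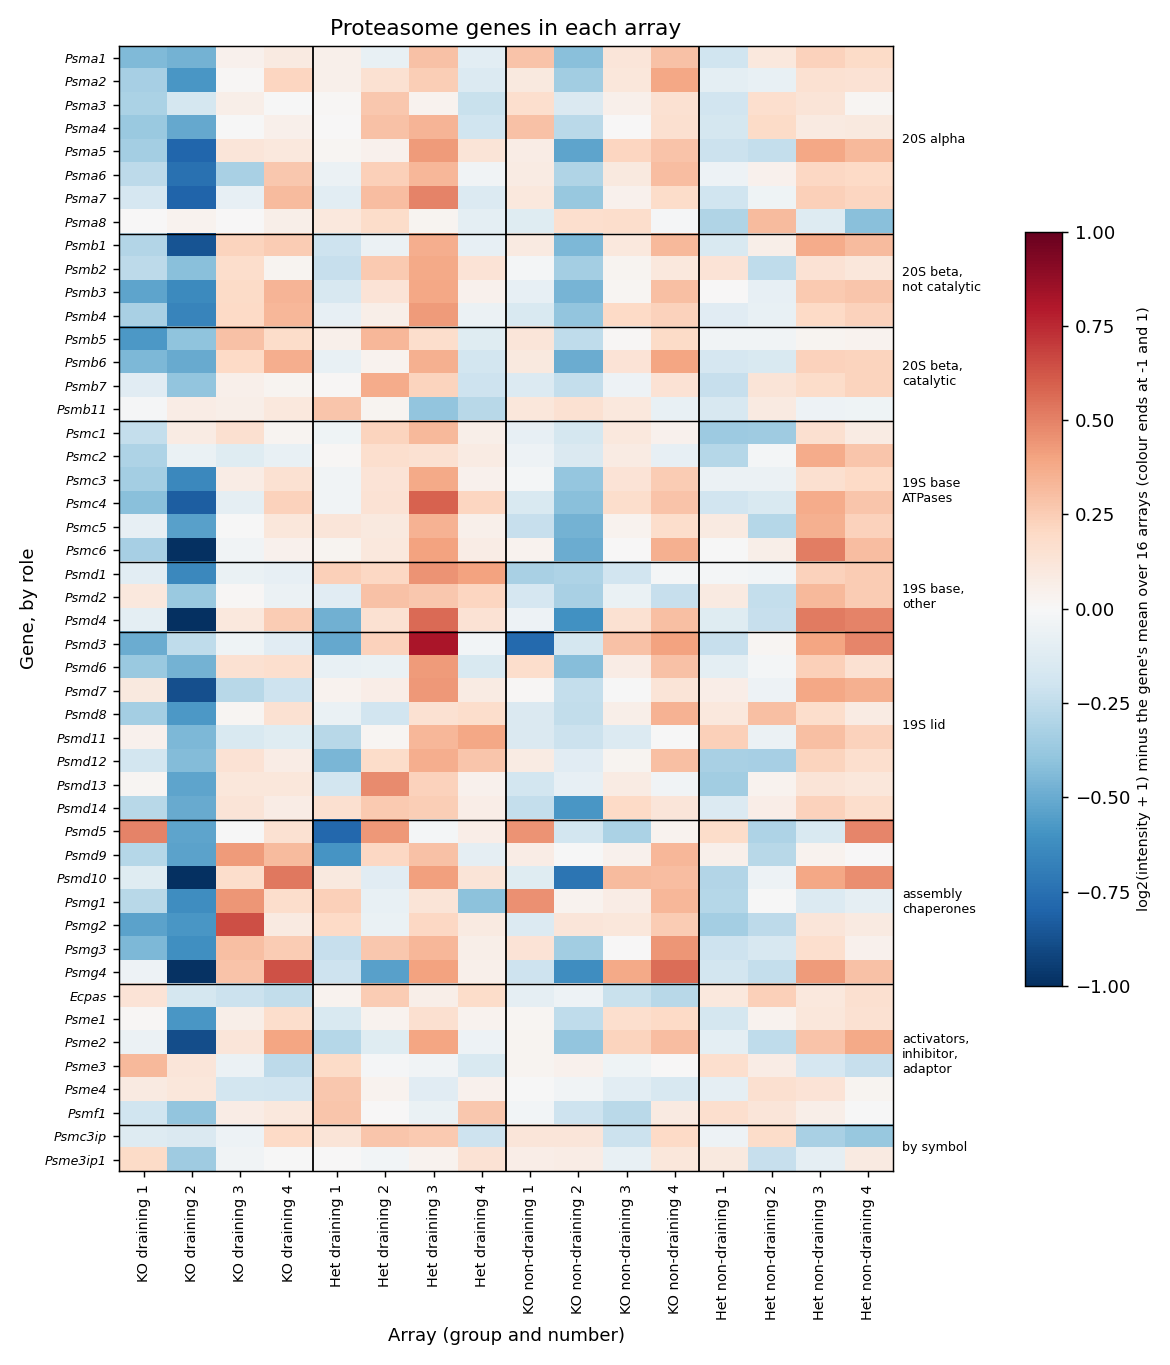
Colour gives log2(intensity + 1) minus the gene's mean over 16 arrays for the 48 proteasome genes (rows, by role) in each array (columns, by group). KO draining array 2 is blue in nearly all rows, with 33 genes at their lowest there, and Het draining array 3 is red in most rows outside the activators.

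**Figure D2:**
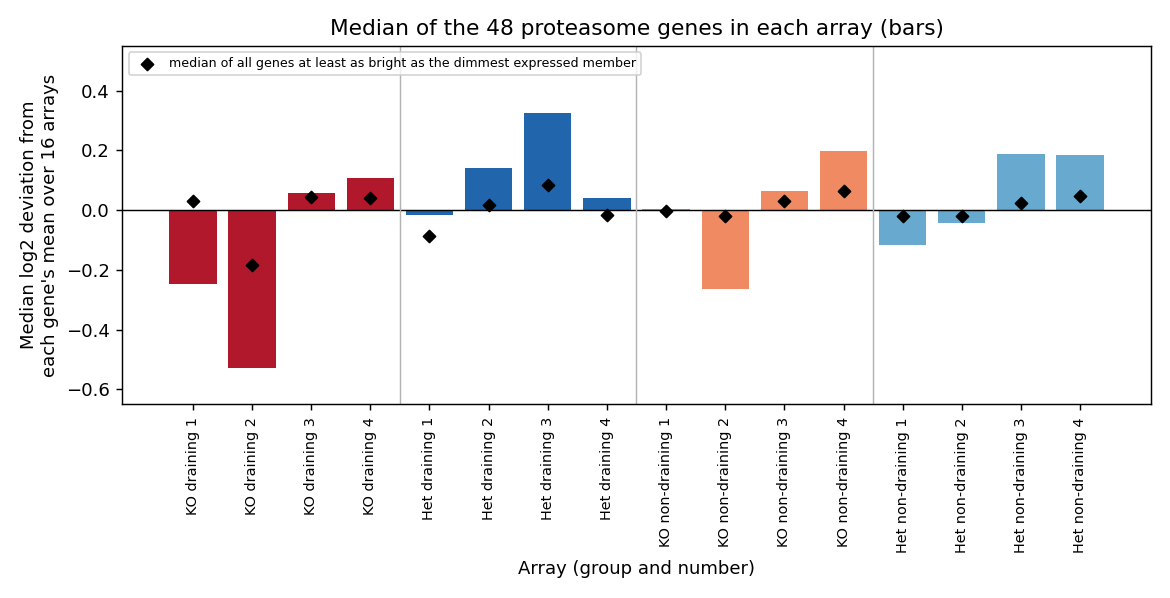
Bars give the median log2 deviation of the 48 proteasome genes from each gene's mean over 16 arrays, per array. Diamonds give the same median for the 7108 genes at least as bright. The lowest bar is KO draining array 2 (-0.53) and the highest is Het draining array 3 (0.33).

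The promoters of 4 members are shown because these genes had the smallest unadjusted p for KO against Het over both nodes: Psmd1 (the large scaffold of the base), Ecpas (ECM29, an adaptor that ties cap to core), Psmd11 (a lid subunit that clamps cap and core together) and Psmd2 (the base subunit that docks ubiquitin shuttle factors). Each line is a RefSeq window of GRCm38.p6, 5′ to 3′ on the gene's strand, from 250 bases before to 50 after the start. Capitals mark a match to the core of the antioxidant response element, TGANNNNGC, searched on both strands.
Psmd1, chr1:86064369-86064668, plus strand: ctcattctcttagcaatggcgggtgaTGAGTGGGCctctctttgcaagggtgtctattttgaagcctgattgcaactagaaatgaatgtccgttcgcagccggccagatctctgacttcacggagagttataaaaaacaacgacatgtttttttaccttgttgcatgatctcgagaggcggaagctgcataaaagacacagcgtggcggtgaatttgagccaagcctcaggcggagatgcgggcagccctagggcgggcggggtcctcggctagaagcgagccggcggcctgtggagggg
Ecpas, chr4:58912700-58912999, minus strand: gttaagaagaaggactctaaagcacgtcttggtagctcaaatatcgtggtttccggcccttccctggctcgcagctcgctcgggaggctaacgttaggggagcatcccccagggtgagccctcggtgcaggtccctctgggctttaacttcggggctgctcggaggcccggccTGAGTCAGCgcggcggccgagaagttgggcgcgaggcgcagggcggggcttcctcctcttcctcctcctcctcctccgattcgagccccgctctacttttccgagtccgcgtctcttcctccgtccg
Psmd11, chr11:80428365-80428664, plus strand: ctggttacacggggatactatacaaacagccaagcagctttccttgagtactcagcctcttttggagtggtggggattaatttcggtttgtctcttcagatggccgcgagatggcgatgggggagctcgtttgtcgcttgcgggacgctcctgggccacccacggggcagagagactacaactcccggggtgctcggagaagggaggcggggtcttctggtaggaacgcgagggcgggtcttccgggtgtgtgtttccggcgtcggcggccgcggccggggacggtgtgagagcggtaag
Psmd2, chr16:20651402-20651701, plus strand: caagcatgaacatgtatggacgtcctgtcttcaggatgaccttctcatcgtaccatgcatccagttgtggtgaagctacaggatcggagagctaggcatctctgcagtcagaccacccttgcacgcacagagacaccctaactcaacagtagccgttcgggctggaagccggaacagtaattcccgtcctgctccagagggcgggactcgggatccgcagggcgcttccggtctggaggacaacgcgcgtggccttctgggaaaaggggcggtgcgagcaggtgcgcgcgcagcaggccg
The Psmd1 window held 1 match, 224 bases before the start, and the Ecpas window 1 match, 77 bases before it. The Psmd11 and Psmd2 windows held none, nor did a second Ecpas window.

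RefSeq windows were matched by symbol for 40 of the 48 members. The TGANNNNGC core was present in 24 of 40 members (60.0%), against 45.0% of all 27025 genes with a window. The GC box, GGGCGG, was present in 24 of 40 (60.0%), against 38.2% of all genes. The CCAAT box was present in 15 of 40 (37.5%), against 41.1% of all genes. Both strands were searched, and matches of different motifs were counted separately where they overlapped. A match is a string in the window and was not tested as a binding site.

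In the draining node, the proteasome genes were lower in KO than in Het cDC1 by sign, and none passed the test. The log2 difference was below 0 for 43 of 48 members (50.9% of all genes), with a median of -0.23 against a median of -0.003 for all genes. Limma called 0 of 19938 genes after Benjamini-Hochberg adjustment (0.0%), with 675 at an unadjusted p under 0.05 (3.39%). At that unadjusted level 6 members were lower (1.7% of all genes) and 0 were higher (1.69%): Psmd1, Psmd7, Ecpas, Psmc4, Psmc6 and Psma6. Groups did not overlap for 2 members, Psmd1 and the ATPase Psmc2, both lower in KO (0.747% of all genes), and for 0 members higher in KO (0.838%). The count of 6 became 2 without KO draining array 2 and 3 without Het draining array 3. It became 13 without KO draining array 3, 11 without KO draining array 4 and 11 without Het draining array 1.

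By role, the medians in the draining node were further from 0 in the cap and the core than among the activators and chaperones. All 3 base scaffolds and receptors were lower (median -0.31), as were all 6 ATPases (-0.30), all 8 alpha subunits (-0.29), all 8 lid subunits (-0.25) and all 4 non-catalytic beta subunits (-0.23). Of the catalytic subunits, 3 of 4 were lower (median -0.17): Psmb5, of the chymotrypsin-like site, by -0.24 ± 0.17, Psmb7, of the trypsin-like site, by -0.21 ± 0.14 and Psmb6, of the caspase-like site, by -0.13 ± 0.21. The thymus form Psmb11 was at 0.15 ± 0.12. Activators, inhibitor and adaptor had a median of -0.10 with 5 of 6 lower, and assembly chaperones a median of -0.04 with 4 of 7 lower. These medians rest on few genes, and differences between roles were not tested.

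Psmd1, the large scaffold of the base, had intensities of 436, 301, 449 and 444 in KO draining arrays, against 554, 543, 642 and 622 in Het draining arrays. Every KO array was below every Het array. The log2 means were 8.65 ± 0.28 in KO and 9.20 ± 0.12 in Het (SD, n = 4 each), a difference of -0.55 ± 0.13 (unadjusted p = 0.000517, adjusted p = 1.00 in limma). Psmd1 was at -0.41 without KO draining array 2, at -0.60 in arrays numbered 1 and 2 alone and at -0.50 in arrays numbered 3 and 4 alone.

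Psmd7, the lid subunit that pairs with the deubiquitinase Psmd14, had 387, 196, 298 and 314 in KO draining arrays, against 370, 379, 488 and 382 in Het draining arrays. KO arrays 2, 3 and 4 were below all Het arrays and KO array 1 was not. Its difference was -0.47 ± 0.17 (unadjusted p = 0.0135, adjusted p = 1.00 in limma), and -0.28 without KO draining array 2. Ecpas had 272, 219, 213 and 209 in KO draining arrays, against 254, 295, 258 and 281 in Het draining arrays. KO array 1 again lay within the Het range and the other 3 below it. The Ecpas difference was -0.26 ± 0.10 (unadjusted p = 0.015, adjusted p = 1.00 in limma).

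Psmc4, an ATPase of the base ring, had 255, 191, 319 and 398 in KO draining arrays, against 331, 376, 510 and 394 in Het draining arrays. The groups overlapped through KO array 4. Its difference was -0.50 ± 0.21 (unadjusted p = 0.0313), and -0.32 without KO draining array 2. Psmc6, another ATPase, had 286, 171, 351 and 371 in KO draining arrays, against 367, 386, 475 and 380 in Het draining arrays. Only KO array 4 reached the Het range, and the difference was -0.50 ± 0.22 (unadjusted p = 0.0332), and -0.26 without KO draining array 2. Psma6, an alpha subunit, had 1828, 1303, 1753 and 2640 in KO draining arrays, against 2099, 2586, 2760 and 2136 in Het draining arrays. Again KO array 4 lay within the Het range and the other 3 below it, and the difference was -0.38 ± 0.18 (unadjusted p = 0.0432), and -0.22 without KO draining array 2. The adjusted p of Psmc4, Psmc6 and Psma6 was 1.00 in limma. Psmc2, a neighbour of Psmc1 in the ATPase ring, had 327, 386, 372 and 384 in KO draining arrays, against 408, 456, 449 and 428 in Het draining arrays. These ranges were apart, and the difference was -0.25 ± 0.12 (unadjusted p = 0.0563).

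The shift of the members as a whole depended on which arrays were used. Their median difference in the draining node was -0.43 in arrays numbered 1 and 2 alone, with 46 of 48 lower and 17 at an unadjusted p under 0.05. In arrays numbered 3 and 4 alone it was -0.04, with 27 of 48 lower and 5 at that level. Leaving out KO draining array 2 alone left a median of -0.11 with 36 members lower. Leaving out Het draining array 3 left -0.16 with 41 lower. With array weights the median was -0.09 with 37 lower. The count at an unadjusted p under 0.05 became 12 with quantile normalization. No label names a batch, so what sets these arrays apart was not tested.

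**Figure D3:**
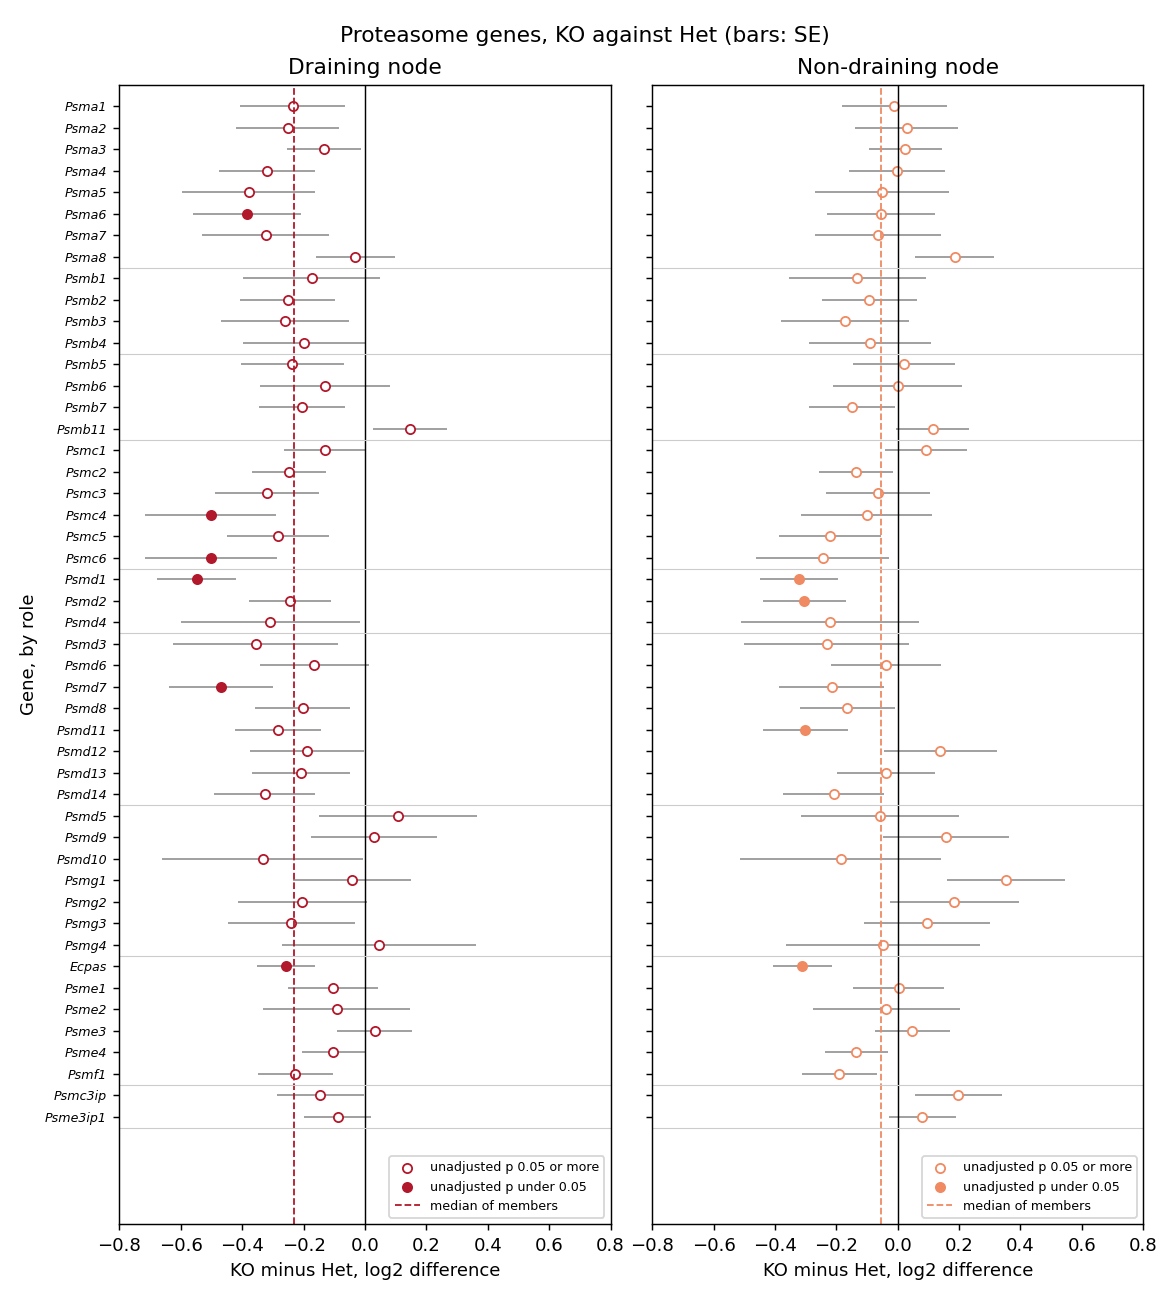
Points give the log2 difference, KO minus Het, of each proteasome gene in draining (left) and non-draining nodes (right), with the standard error from limma as bars. Filled points have an unadjusted p under 0.05, none passed the adjusted test, and dashed lines mark the members' medians of -0.23 and -0.06.

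In the non-draining node, the members were centred closer to 0. Of 48, 33 were lower in KO (48.1% of all genes), with a median of -0.06 against 0.005 for all genes. Limma called 0 genes (0.0%), with 494 at an unadjusted p under 0.05 (2.48%). At that level 4 members were lower (1.18% of all genes) and 0 higher (1.3%): Ecpas, Psmd1, Psmd2 and Psmd11. Groups did not overlap for Ecpas, lower in KO (1.19% of all genes), and for the chaperone Psmg1, higher in KO (1.2%). The count of 4 became 1 without KO non-draining array 1 or 2, or without Het non-draining array 3 or 4. Without KO non-draining array 2 the median was 0.05 and 17 members were lower.

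Ecpas had intensities of 232, 239, 211 and 204 in KO non-draining arrays, against 265, 292, 265 and 276 in Het non-draining arrays. All KO arrays were below all Het arrays. The log2 means were 7.80 ± 0.11 in KO and 8.11 ± 0.07 in Het (SD, n = 4 each), a difference of -0.31 ± 0.10 (unadjusted p = 0.00477, adjusted p = 1.00 in limma). Psmd1 had 375, 378, 410 and 463 in KO non-draining arrays, against 462, 461, 551 and 560 in Het non-draining arrays. The groups met at KO array 4, which was just above the 2 lower Het arrays. Its difference was -0.32 ± 0.13 (unadjusted p = 0.0226, adjusted p = 1.00 in limma).

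Psmd2 had 517, 465, 557 and 496 in KO non-draining arrays, against 619, 492, 729 and 694 in Het non-draining arrays. Het array 2 lay within the KO range and the other 3 above it. The difference was -0.30 ± 0.13 (unadjusted p = 0.0373), and -0.23 at the second Psmd2 probe set. Psmd11 had 354, 338, 356 and 391 in KO non-draining arrays, against 462, 376, 483 and 460 in Het non-draining arrays. Again Het array 2 lay within the KO range, and the difference was -0.30 ± 0.14 (unadjusted p = 0.0453). The adjusted p was 1.00 for both in limma.

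Psmg1, which pairs with Psmg2 to start the alpha ring, ran the other way. It had 212, 159, 163 and 195 in KO non-draining arrays, against 127, 155, 141 and 145 in Het non-draining arrays. The groups did not overlap, and the difference was 0.35 ± 0.19 (unadjusted p = 0.0847, adjusted p = 1.00 in limma). In the draining node Psmg1 had 128, 100, 211 and 175 in KO arrays, against 183, 147, 169 and 116 in Het arrays, with a difference of -0.04 ± 0.19. The KO draining arrays spanned the whole Het range and beyond at both ends.

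By role, the base scaffolds and receptors had a median of -0.30 in the non-draining node (3 of 3 lower) and the lid -0.19 (7 of 8). The ATPases had -0.12 (5 of 6) and the non-catalytic beta subunits -0.11 (4 of 4). The alpha subunits had -0.01 (5 of 8), the catalytic subunits 0.01 (2 of 4), and the chaperones 0.10 (3 of 7). Activators, inhibitor and adaptor had -0.09 (4 of 6). The 7 alpha subunits other than Psma8 lay between -0.06 and 0.03 in the non-draining node, against -0.38 to -0.13 in the draining node.

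Over both nodes, 41 of 48 members were lower in KO (49.2% of all genes), with a median of -0.15 against 0.002 for all genes. Limma called 0 genes (0.0%), with 696 at an unadjusted p under 0.05 (3.49%). At that level 10 members were lower (1.75% of all genes) and 0 higher (1.75%), and 8 of the 10 belonged to the 19S cap. The 10 were Psmd1, Ecpas, Psmd11, Psmd2, Psmd7, Psmc6, Psmf1 (the inhibitor PI31), Psmd14 (the lid's deubiquitinase) and the ATPases Psmc2 and Psmc5. None of the 16 genes of the 20S core was among them, and a difference between cap and core was not tested. The count became 5 without KO non-draining array 2, and 6 without KO draining array 1, KO draining array 2, Het draining array 3 or Het non-draining array 3. The median became -0.07 without KO draining array 2, with 33 members lower, and -0.08 with array weights. It was -0.24 in arrays numbered 1 and 2 alone and -0.04 in arrays numbered 3 and 4 alone. By role over both nodes, the cap had all 6 ATPases lower (median -0.22), all 3 base scaffolds and receptors (-0.27) and all 8 lid subunits (-0.23). In the core, 7 of 8 alpha subunits were lower (median -0.14), as were all 4 non-catalytic beta subunits (-0.16) and 3 of 4 catalytic subunits (-0.09).

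Psmd1 had the smallest p of the members over both nodes, at -0.43 ± 0.09 (unadjusted p = 0.000175, adjusted p = 0.82 in limma). Its difference was -0.44 in arrays numbered 1 and 2 alone and -0.42 in arrays numbered 3 and 4 alone. Ecpas was at -0.28 ± 0.07 (unadjusted p = 0.000611, adjusted p = 1.00 in limma), with -0.20 and -0.37 in those same sets. In the draining node Psmd11 had 404, 288, 353 and 361 in KO arrays, against 324, 398, 493 and 513 in Het arrays. Psmd2 had 627, 448, 587 and 557 in KO draining arrays, against 538, 713, 702 and 674 in Het draining arrays. Het arrays 1 and 2 lay within the KO range for Psmd11, and Het array 1 did for Psmd2. Over both nodes Psmd11 was at -0.29 ± 0.10 (unadjusted p = 0.00876), with -0.17 and -0.41 in the 2 sets. Psmd2 was at -0.27 ± 0.09 (unadjusted p = 0.0104), with -0.20 and -0.35. The adjusted p was 1.00 for Psmd11 and Psmd2 in limma. All 4 genes were lower in KO in both sets, but they were chosen by their p over these same arrays. The shared sign is therefore no independent check.

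**Figure D4:**
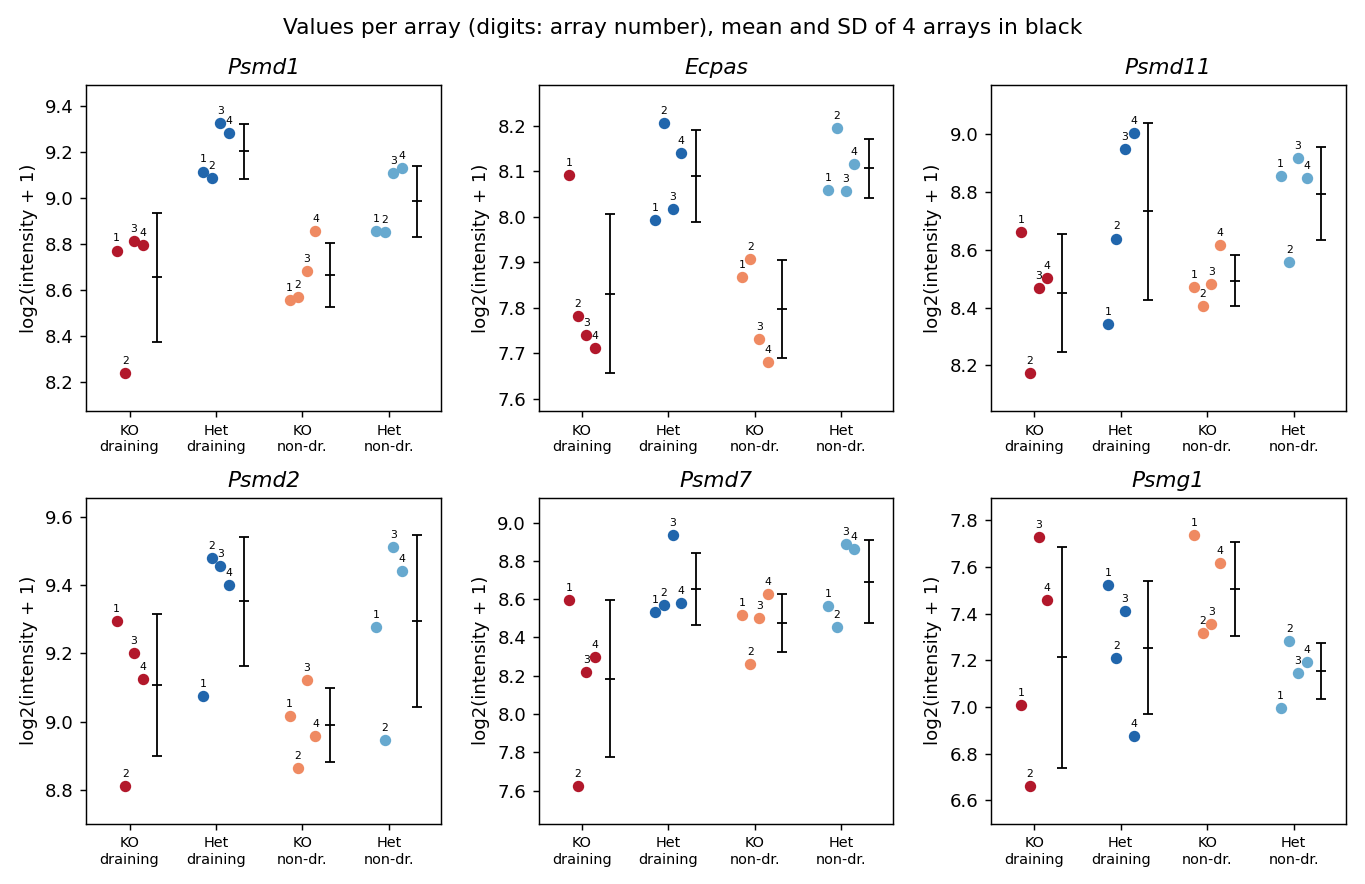
Points give log2(intensity + 1) per array, with the array number, for 6 proteasome genes in the 4 groups. Black marks give the mean and SD of 4 arrays. For Psmd1 every KO draining array is below every Het draining array, for Ecpas every KO non-draining array is below every Het non-draining array, and for Psmg1 the KO non-draining arrays lie above the Het non-draining ones.

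Between the nodes of Het mice, the members were centred near 0. Of 48, 17 were lower in the draining node (47.2% of all genes) and 31 higher, with a median of 0.02 against 0.008 for all genes. Limma called 0 genes (0.0%), with 655 at an unadjusted p under 0.05 (3.29%). At that level 0 members were lower (1.35% of all genes) and 0 higher (1.93%), and groups did not overlap for 0 members (0.998% of all genes lower and 1.4% higher). The smallest p was that of Psmc1, an ATPase that gates the core, with 354, 426, 456 and 380 in Het draining arrays, against 283, 285, 408 and 386 in Het non-draining arrays. The groups overlapped, and the difference was 0.26 ± 0.13 (unadjusted p = 0.0681, adjusted p = 1.00 in limma). Psmc1 was at 0.45 in arrays numbered 1 and 2 alone and at 0.07 in arrays numbered 3 and 4 alone.

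The next 3 by p were Psmc3ip (0.26 ± 0.14), Psmd1 (0.22 ± 0.13) and Psma8 (0.19 ± 0.13), with unadjusted p of 0.0864, 0.108 and 0.161. Psmc3ip had 63.6, 70.8, 70.0 and 50.2 in Het draining arrays, against 56.0, 66.3, 46.2 and 44.5 in Het non-draining arrays. Psma8 had 26.8, 28.3, 25.2 and 23.1 in Het draining arrays, against 19.9, 31.1, 22.6 and 18.3 in Het non-draining arrays. Both are dim, and their groups overlapped. Psma8 was at 0.34 without Het non-draining array 2 and at 0.09 without Het non-draining array 4. The median of the members was 0.13 in arrays numbered 1 and 2 alone and -0.05 in arrays numbered 3 and 4 alone, where 31 of 48 were lower. The member count lower by sign became 28 without Het draining array 3, 26 without Het non-draining array 1, 11 without Het draining array 1 and 9 without Het non-draining array 3.

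Between the nodes of KO mice, 41 of 48 members were lower in the draining node (49.3% of all genes), with a median of -0.13 against 0.002 for all genes. Limma called 0 genes (0.0%), with 421 at an unadjusted p under 0.05 (2.11%). At that level 0 members were lower (0.973% of all genes) and 0 higher (1.14%), and groups did not overlap for 0 members (0.592% of all genes lower and 0.848% higher). All 16 core genes and all 8 lid subunits were lower by sign, with medians of -0.24 for the alpha subunits and -0.16 for the lid. Without KO draining array 2 the median was -0.002 and 24 members were lower, and with array weights it was 0.004 with 23 lower. It was -0.26 in arrays numbered 1 and 2 alone and -0.02 in arrays numbered 3 and 4 alone. This comparison shares the KO draining arrays with the genotype comparison of that node, so the 2 are not independent.

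The smallest p was that of Psma6, with 1828, 1303, 1753 and 2640 in KO draining arrays, against 2318, 1776, 2343 and 2711 in KO non-draining arrays. The groups overlapped, the difference was -0.31 ± 0.18 (unadjusted p = 0.0944, adjusted p = 1.00 in limma), and it was -0.15 without KO draining array 2 and -0.49 without KO draining array 4. Psmd7 had 387, 196, 298 and 314 in KO draining arrays, against 365, 306, 361 and 394 in KO non-draining arrays. These overlapped, and Psmd7 was at -0.29 ± 0.17 (unadjusted p = 0.105), and at -0.10 without KO draining array 2. Psma4, an alpha subunit, had 772, 702, 999 and 1035 in KO draining arrays, against 1226, 828.7, 1003 and 1114 in KO non-draining arrays. KO draining arrays 1 and 2 were below all non-draining arrays and the other 2 within their range. Psma4 was at -0.25 ± 0.16 (unadjusted p = 0.122), and at -0.15 without KO draining array 2. Psma1, also of the alpha ring, had 1689, 1648, 2363 and 2441 in KO draining arrays, against 2784, 1712, 2484 and 2808 in KO non-draining arrays. Its groups overlapped and its difference was -0.26 ± 0.17 (unadjusted p = 0.143), with -0.17 without KO draining array 2 and -0.42 without KO non-draining array 2.

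The interaction tests whether the difference between KO and Het in the draining node departs from that in the non-draining node. It was below 0 for 41 of 48 members (52.3% of all genes), with a median of -0.14 against -0.009 for all genes. Limma called 0 genes (0.0%), with 463 at an unadjusted p under 0.05 (2.32%). At that level 0 members were below 0 (1.33% of all genes) and 0 above (0.993%). The 8 alpha subunits had a median of -0.27, with all 8 below 0, and the 6 ATPases -0.24, with all 6 below 0. The smallest p values belonged to Psmc3ip (-0.34 ± 0.20, unadjusted p = 0.105), Psmg1 (-0.39 ± 0.27, 0.166), Psma4 (-0.32 ± 0.22, 0.169) and Psma6 (-0.33 ± 0.25, 0.201). Psmd1 was at -0.23 and Ecpas at 0.05. The median of the members turned to 0.03 in arrays numbered 3 and 4 alone, with 23 of 48 below 0, and was -0.32 in arrays numbered 1 and 2 alone, with 41 below 0. It was -0.03 without KO draining array 2 and -0.03 with array weights, each with 28 below 0.

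Over both genotypes, 34 of 48 members were lower in the draining node (47.7% of all genes), with a median of -0.05 against 0.005 for all genes. Limma called 0 genes (0.0%), with 610 at an unadjusted p under 0.05 (3.06%). At that level 0 members were lower (1.3% of all genes) and 0 higher (1.76%). Without KO draining array 2 the median was 0.02 and 16 members were lower. The smallest p values were those of Psmc1 (0.15 ± 0.09, unadjusted p = 0.134), the lid subunit Psmd8 (-0.17 ± 0.11, 0.141), Psmd7 (-0.16 ± 0.12, 0.189) and Psmc6 (-0.19 ± 0.15, 0.219). Psmd8 had 447, 381, 575 and 630 in KO draining arrays, against 511, 479, 589 and 721 in KO non-draining arrays. In Het mice it had 542, 497, 630 and 639 in draining arrays, against 609, 700, 640 and 601 in non-draining arrays. These groups overlapped in both genotypes.

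Further probe sets were present for 5 members, since Psma3 had 3 and Psma5, Psmb3, Psmc1 and Psmd2 had 2 each. Against Het in the draining node, KO was lower at all 11, which include the brightest one of each member, used above. All were read on the same arrays, so they cannot check a shift that rests on single arrays. Psma3 was at -0.13, -0.14 and -0.14, Psma5 at -0.38 and -0.39, Psmb3 at -0.26 and -0.33, Psmc1 at -0.13 and -0.27, and Psmd2 at -0.24 and -0.27. Signs differed elsewhere for 3 of these members, each time close to 0. Psma5 was at -0.05 and 0.07 between KO and Het non-draining nodes, and Psmc1 was at 0.04 and -0.04 for draining against non-draining in KO. Psma3 was at -0.01, 0.00 and -0.02 for draining against non-draining in Het. Several probe sets for 1 subunit can reflect near-identical copies in the genome, so the source of these signals is uncertain.

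The immunoproteasome subunits, which replace the catalytic core subunits, were bright. Psmb9 had 3801, 2738, 4462 and 5453 in KO draining arrays, against 3556, 4735, 5197 and 3907 in Het draining arrays. The groups overlapped, and the KO arrays spanned the whole Het range. In the draining node, KO minus Het was as follows: Psmb8 was at -0.07 ± 0.17, Psmb9 at -0.11 ± 0.19 and Psmb10 at -0.12 ± 0.21. In the non-draining node they were at -0.02, 0.08 and -0.05. None of the 3 reached an unadjusted p under 0.05 in any of the 7 comparisons.

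The RNA of NRF1, Nfe2l1, showed genotype differences close to 0, and NRF1 protein and activity were not measured. Nfe2l1 had 1190, 719, 931 and 1014 in KO draining arrays, against 822, 853, 1037 and 1032 in Het draining arrays, and the groups overlapped. Its differences were 0.03 ± 0.14 in draining and -0.01 ± 0.14 in non-draining nodes, and both changed sign when single arrays were left out. Of the 8 genes measured of 9 listed for the NRF1 route, 2 were lower in KO at an unadjusted p under 0.05 in the draining node (1.7% of all genes), Mafg and Vcp, and 0 were higher (1.69%). By sign 3 of the 8 were lower there, with a median of 0.04. Mafg, a small Maf partner of NRF1 on DNA, had 175, 165, 184 and 177 in KO draining arrays, against 229, 218, 203 and 212 in Het draining arrays. Every KO array was below every Het array, as for 0.747% of all genes, and the difference was -0.30 ± 0.08 (unadjusted p = 0.00269, adjusted p = 1.00 in limma). The other listed small Mafs, Maff and Mafk, were at 0.13 ± 0.18 and 0.05 ± 0.10 there. Away from the tumour, in the non-draining node, Maff was higher in KO without overlap (1.2% of all genes), at 0.33 ± 0.18 (unadjusted p = 0.0926 in limma).

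In the non-draining node Mafg had 218, 205, 212 and 205 in KO arrays, against 179, 234, 205 and 209 in Het arrays, a difference of 0.03 ± 0.08. It was also lower in the draining than in the non-draining node of KO mice, by -0.26 ± 0.08 (unadjusted p = 0.00702), with groups that did not overlap (0.592% of all genes were lower without overlap in that comparison). The interaction was -0.32 ± 0.12 (unadjusted p = 0.0147, adjusted p = 1.00 in limma). Vcp, the ATPase that extracts ubiquitinated proteins from membranes and complexes, had 1069, 791, 793 and 866 in KO draining arrays, against 980, 944, 1166 and 1173 in Het draining arrays. KO array 1 lay within the Het range and the other 3 below it. Vcp was at -0.28 ± 0.13 (unadjusted p = 0.0415) there and at -0.23 ± 0.09 over both nodes (unadjusted p = 0.0193). In the draining node it was at -0.06 in arrays numbered 1 and 2 alone and at -0.50 in arrays numbered 3 and 4 alone.

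Nploc4, which pairs with Ufd1 as a cofactor of Vcp, had 825, 476, 570 and 569 in KO draining arrays, against 701, 732, 756 and 792 in Het draining arrays. It had 597, 622, 613 and 620 in KO non-draining arrays, against 872, 678, 701 and 761 in Het non-draining arrays. KO array 1 was the highest of its node, and in the non-draining node all KO arrays were below all Het arrays, as for 1.19% of all genes. The differences were -0.32 ± 0.13 (unadjusted p = 0.027) in draining nodes and -0.29 ± 0.13 (unadjusted p = 0.0404) in non-draining nodes, and -0.30 ± 0.09 over both (unadjusted p = 0.0045, adjusted p = 1.00 in limma). The draining difference was -0.21 without KO draining array 2. Nploc4 was the single gene of the 10 measured shuttle and extraction factors at an unadjusted p under 0.05 in each of these comparisons (lower for 1.7% of all genes in draining nodes, 1.18% in non-draining nodes and 1.75% over both).

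Ngly1, the glycanase that acts on NRF1 as it leaves the endoplasmic reticulum, had 212, 149, 181 and 192 in KO non-draining arrays, against 209, 288, 214 and 209 in Het non-draining arrays. The groups overlapped through KO array 1, and the difference was -0.32 ± 0.12 (unadjusted p = 0.0147, adjusted p = 1.00 in limma), and -0.21 without Het non-draining array 2. Over both nodes Ngly1 was at -0.19 ± 0.08 (unadjusted p = 0.0413), Mafg at -0.14 ± 0.06 (0.0371) and Txnl1, a thioredoxin bound to the cap, at -0.20 ± 0.09 (0.0295). Nfe2l2 (NRF2), the stress-responsive relative of NRF1, had 203, 243, 254 and 223 in Het draining arrays, against 237, 321, 328 and 322 in Het non-draining arrays. The groups overlapped through Het non-draining array 1, and the difference was -0.38 ± 0.14 (unadjusted p = 0.0132). Over both genotypes Nfe2l2 was at -0.29 ± 0.10 (unadjusted p = 0.00747) and Ube3c, a ubiquitin ligase of the proteasome, at 0.21 ± 0.09 (unadjusted p = 0.0311), both adjusted p = 1.00 in limma.

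The remaining listed genes did not reach an unadjusted p under 0.05 in the comparisons of KO with Het in either node. They included the 7 measured maturation and bound factors, of which 4 were lower in the draining node (median -0.09), and the 7 cytosolic peptidases that trim proteasome products, of which 5 were lower (median -0.03). Of the ubiquitin and E1 genes 1 of 6 was measured, the E1 enzyme Uba6. In all, 36 of 45 listed genes were measured.

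Markers of cDC1 and those of the other marker lists were also compared between KO and Het, and none passed the adjusted test in limma. Of all genes, 50.9% were lower in KO by sign within draining nodes and 48.1% within non-draining nodes. At an unadjusted p under 0.05 in limma, 1.7% of all genes were lower and 1.69% higher for draining nodes. These shares were 1.18% lower and 1.3% higher for non-draining nodes, and 1.75% lower and 1.75% higher over both. Of the 11 cDC1 markers, 8 were lower in KO in the draining node (median -0.03), with summed intensities of 12200 to 14250 in KO arrays, against 13230 to 14900 in Het arrays. In the non-draining node 9 of 11 were higher in KO (median 0.19), Cd8a at an unadjusted p under 0.05, with sums of 12590 to 15830 in KO arrays, against 11320 to 14850 in Het arrays. All 10 measured T cell markers were higher in KO in the draining node (median 0.28), with summed intensities of 1309 to 2807 in KO arrays, against 1147 to 2225 in Het arrays. In the non-draining node all 10 were lower in KO (median -0.37), Cd5 and Cd6 at an unadjusted p under 0.05, with 855 to 2449 in KO arrays, against 1309 to 2525 in Het arrays. Of 9 measured B cell markers, 8 were higher in KO in the draining node (median 0.12), Fcer2a at an unadjusted p under 0.05, with sums of 474 to 618 in KO arrays, against 420 to 771 in Het arrays. All 9 were higher in KO in the non-draining node (median 0.51), Bank1, Ms4a1 and Pax5 at an unadjusted p under 0.05, with sums of 520 to 848 in KO arrays, against 386 to 718 in Het arrays. Over both nodes all 9 B cell markers were higher in KO (median 0.36), 5 of them at an unadjusted p under 0.05 (1.75% of all genes): Fcer2a, Cr2, Bank1, Cd79a and Blk. In the remaining lists, those at that level were Irf4, Cd207 and S100a9. Irf4 of the cDC2 list was lower in KO in the non-draining node and over both nodes. Cd207 of the skin migratory dendritic cell list was higher in KO in the draining node and over both. S100a9 of the neutrophil list was lower in KO over both. The skin list summed to 7561 to 14410 in KO draining arrays, against 9346 to 13350 in Het draining arrays. It was not shown to mark cells other than cDC1. No marker was listed at 0. Their part in the proteasome values was not tested. In sorted bulk samples, fewer cDC1 and less of an RNA per cDC1 cannot be told apart.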

How the data were processed

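Total RNA of sorted cDC1 was measured on 16 arrays, 4 in each of 4 groups taken with their numbers 1 to 4 from the sample titles. For 35556 probe sets, the authors deposited linear intensity values between 3.327 and 16300.089. Per the submitters' processing notes these are RMA values; which program made them is not given in the sources used here. As usually run, RMA equalizes the arrays' distributions at the level of single probes, before these are summarized, which removes much of any shift common to all genes. The deposited arrays still differed in mean and median. The number of arrays limits the precision: the median standard error was 0.125 for a difference within a node or genotype.

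Of the probe sets, 21789 carried 1 gene symbol, 1621 several and 12146 none in the platform annotation. Of the 21789 probe sets, 21698 had a gene ID that matched the RefSeq gene table (GRCm38.p6). The brightest probe set stood for a gene, which gave 19938 genes. The 48 members have 54 probe sets, and 1 further probe set shared by a member and another gene was not used. Values were tested two-sided as log2(intensity + 1) with limma 3.58.1 in R 4.3.3, in 1 fit of the 4 groups (12 residual and 4.35 prior degrees of freedom), with 7 comparisons and Benjamini-Hochberg adjustment over all genes at 0.05. Errors are standard errors for differences and SDs for means. No member was left out for a low value. Plots used matplotlib 3.10.9.

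The members, role groups, pathway lists and alternatives were chosen with earlier results of these data known. Named members were the 4 of smallest unadjusted p in each comparison, since fewer than 4 passed, the brightest and dimmest, those of widest and narrowest spread and those whose probe sets differ in sign. Pathway genes were named at an unadjusted p under 0.05, and Maff and Mafk beside Mafg as the other small Mafs. Promoter windows and their sequences came from RefSeq. Equal array numbers were checked as pairs by correlating deviations from the group means. For Het draining with Het non-draining every r of equal numbers lay between 0.199 and 0.314. Unequal numbers there had r between -0.346 and 0.376, so some correlated more than any equal ones. The numbers were treated as possible pairs for these groups, although this check does not show pairs. The sample titles do not state pairs and the main fit used none. For the other 3 pairs of groups the lowest r of equal numbers was between -0.0559 and 0.017, and they were not treated as pairs. KO draining with KO non-draining had r of -0.0142, 0.448, 0.197 and 0.481 for numbers 1 to 4. Unequal numbers there had r between -0.488 and 0.384. The check therefore does not settle whether the nodes of either genotype were paired.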

Additional observations from a re-analysis of the deposited data

Results flagged for a closer look

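Among the 15 members named from the comparisons and the median of all members, 64 groups of 4 arrays were searched for an array far from the other 3, with Dixon's critical value of 0.829, which chance passes in about 1 of 20 groups. There were 2. Psmd1 in KO draining array 2 had a log2 value of 8.24, against 8.77 to 8.81 in the other 3 KO draining arrays. That array also held the lowest value of 33 of the 48 members. Psmd7 in Het draining array 3 had a log2 value of 8.93, against 8.54 to 8.58 in the other 3 Het draining arrays. That array held the highest value of 17 members.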

How the results depend on the processing

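Under 28 alternatives for each comparison (offset, probe set summary, a filter on dim genes, normalization, array weights, blocks, sets of arrays, and each array left out), no member passed the adjusted test in any comparison. In arrays numbered 3 and 4 alone, limma called 4 genes between KO and Het draining arrays, 2 between KO and Het non-draining arrays, 5 for genotype over both nodes and 1 between the nodes of KO mice, against 0 in each over all arrays. With the replicate block, 1 gene was called for KO against Het over both nodes (adjusted p = 0.0315), and in each of the other comparisons 0. With each array left out in turn, 0 genes were called in every comparison. Reversals, whose cause was not tested, all concerned differences with an unadjusted p above 0.05. In arrays numbered 3 and 4 alone, the interaction of Psmg1 was 0.133 and its KO minus Het in draining nodes 0.45 (0.23 with array weights), and Nfe2l1 was at -0.0906 in draining nodes and -0.0715 over both. In arrays numbered 1 and 2 alone, Psmc2 was at 0.0543 and Nfe2l1 at 0.0350 in non-draining nodes, and Psmg1 at -0.0716 over both. With each array left out, Psmg1 lay between -0.21 and 0.14 and Nfe2l1 between -0.0833 and 0.159 in draining nodes, and Nfe2l1 between -0.0572 and 0.0526 in non-draining nodes and between -0.046 and 0.0753 over both. These genes, Vcp, Mafg and the other pathway genes were added to the alternatives after the data were seen. The members lower in KO at an unadjusted p under 0.05 numbered 13 in the draining node with the replicate block, against 6 without it, and 14 over both nodes, against 10. The block changed no call for draining against non-draining in Het, where the numbers were treated as possible pairs. Over the alternatives the median of the members for KO against Het stayed below 0 in draining nodes (-0.43 to -0.04) and over both nodes (-0.24 to -0.04). It changed sign in the other 5 comparisons, between -0.13 and 0.05 for KO against Het in non-draining nodes, -0.32 and 0.03 for the interaction, -0.26 and 0.004 for the nodes of KO mice, -0.05 and 0.13 for those of Het mice and -0.10 and 0.02 over both genotypes. The median of all genes stayed within 0.1 of 0. Psma8 is too dim to be tested in the setting that keeps genes above the median level. With 4 arrays a group, differences near the median standard error of 0.125 were not detectable, and much larger ones were not called either. For KO against Het in draining nodes, Psmd1 at -0.55 was not called, and the smallest adjusted p of any gene was 0.265 in limma. A member that was not called is thus not shown to be unchanged.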
